A study of Mus musculus with 48 samples.

Results

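The comparison described here sets splenic regulatory T cells (Tregs) of mice given a far-attenuated human IL-2, the 3x mutein, against Tregs of mice given wild-type (WT) human IL-2, in the arm that received the isotype control antibody. The 8 libraries, 4 per group, were chosen by their labels as Treg samples with the treatment Isotype and the drug IL2 (3x) or WT, out of 48 libraries in the series. All animals were female C57BL/6 mice of 8 to 12 weeks, one per library, and all 8 had received the isotype antibody LTF-2 intraperitoneally in 2 doses of 500 µg. Both IL-2 molecules were human IL-2 fused to a human IgG1 Fc without effector function, given once at 25 µg subcutaneously. The 3x mutein carries the substitutions D20A, V91K and M104V, and spleens were taken on day 4. Both molecules were thus compared at 1 matched dose and 1 time point, in mouse cells responding to human proteins. WT IL-2 libraries 3a and 3b carry the same mouse number in the labels and are treated as separate animals, and summing them left 3667 genes called in place of 4296. Tregs were the bead-bound CD25+ fraction of splenocytes from a Treg isolation kit, so that the gene for CD25, Il2ra, encodes the molecule used to select the cells. Some values are set beside those of isotype mice given PBS or the less attenuated mutein H16R (4 libraries each), and of mice that received the MHC class II blocking antibody M5/114 in place of the isotype antibody.

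IL-2 binds a receptor of 3 chains, of which the alpha chain CD25 raises affinity and the beta and common gamma chains signal through JAK1 and JAK3 to the transcription factor STAT5. Tregs express CD25 constitutively and depend on IL-2 for the expression of FOXP3, for survival and for proliferation. Signals from the T cell receptor (TCR), which recognises peptide on MHC class II, act together with IL-2 to turn resting Tregs that recirculate through lymphoid organs into effector Tregs, which carry more CTLA4, ICOS, IL-10 and tissue-homing receptors.

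Total expected counts were 40999556 to 46145562 (median 44518023) in the WT IL-2 libraries and 38192591 to 49906352 (median 48295916) in the 3x libraries. In a principal component analysis of the 16 isotype Treg libraries, the first component held 53.6% of the variance and placed WT IL-2 at -5.60 to 1.87 and 3x at 20.7 to 30.7. The summed level of 8 T cell and Treg markers was 5550 to 6150 CPM (counts per 1000000 counts of the library) with WT IL-2 and 5560 to 5740 CPM with 3x, and these markers include Foxp3 and Il2ra. No 2 libraries of a group were copies of each other.

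Markers of other cell types were present in the bead-selected fraction, and those of plasma cells, B cells, MHC class II presentation, dendritic cells and NK cells were lower in sum in every 3x library than in any WT IL-2 library. All 6 plasma cell markers were lower, and their sum was 794 to 936 CPM in the WT IL-2 libraries and 159 to 268 CPM in the 3x libraries. Genes of MHC class II presentation summed to 487 to 653 CPM and 188 to 243 CPM, respectively, with 5 of 9 lower where 17.7% of all tested genes were, and B cell markers to 77 to 137 CPM and 41.8 to 57.7 CPM, with 4 of 13 tested lower. Dendritic cell markers (60.4 to 67.1 and 41.9 to 48.1 CPM, 3 of 9 lower), natural killer (NK) cell markers (21.4 to 32.9 and 14.6 to 21.1 CPM, 2 of 6 lower) and erythroid markers (3.23 to 12.7 and 1.57 to 3.34 CPM, 6 of 6 lower) followed the same direction. Monocyte and macrophage markers (28.0 to 39.1 and 26.6 to 32.7 CPM), neutrophil markers (6.48 to 11.2 and 4.29 to 8.43 CPM) and CD8 T cell markers (10.0 to 12.8 and 9.45 to 11.0 CPM) overlapped between the groups, and 1 of their tested members, Itgam, was called, higher with 3x (adjusted p = 0.0656, and not called when WT IL-2 library 2 or 3b or 3x library 1 or 3 was left out or libraries 3a and 3b were summed). In bulk RNA, fewer cells of a type and less RNA per cell cannot be told apart. The plasma cell, B cell and MHC class II sums did not overlap between the groups, so within the isotype arm they and the IL-2 molecule cannot be told apart. A model with the log2 summed level of these 29 markers as a covariate over all 32 Treg libraries, added after the data were seen, is referred to as the marker-adjusted model and its value is given beside the genes described here whose call it ended or whose called value it moved by over 1.5 times. In it Itgam was at 2.38 (adjusted p = 0.00263), and 10 of the 11 tested monocyte and macrophage markers were called. The phagocyte genes Lrp1 (3.94), Itgad (2.76), Mpeg1 (1.83), Cfp (1.41) and Nfam1 (1.33) were called higher in it too, and were not called without the covariate. The larger value of Itgam there is thus shared with other phagocyte genes.

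**Figure D1:**
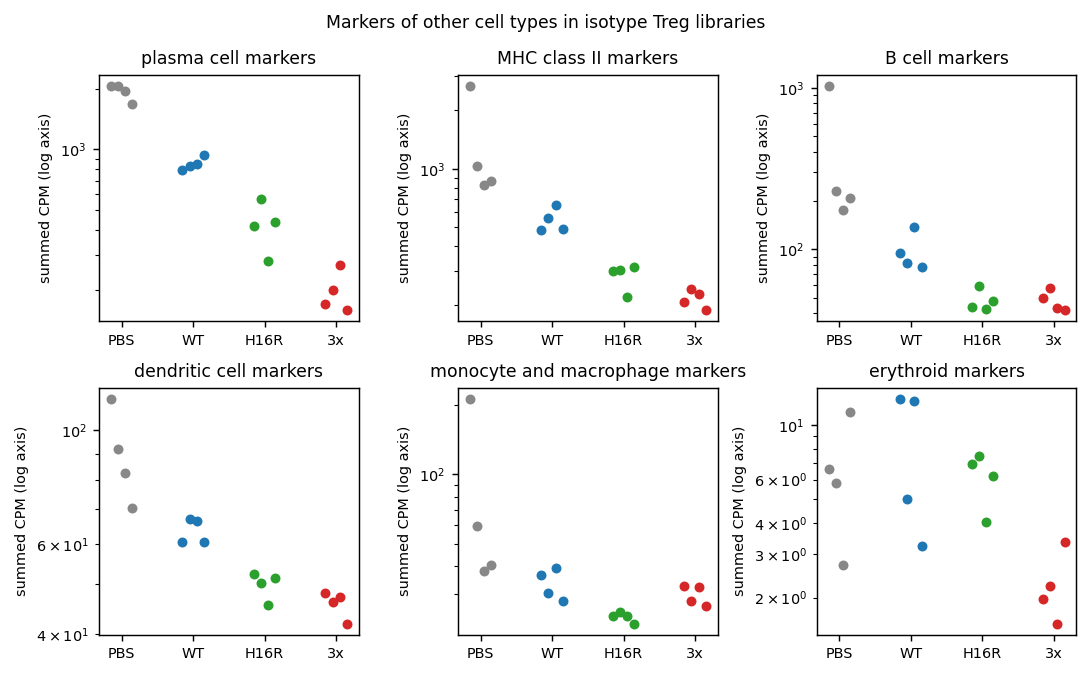
Summed CPM of 6 marker lists (vertical log axes) in each isotype Treg library by treatment (horizontal axis, 4 libraries each), 1 point per library. Plasma cell markers ran from 159 to 268 CPM with 3x and from 794 to 936 CPM with WT IL-2, and were 1680 to 2070 CPM with PBS and 279 to 564 CPM with H16R.

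Of 12392 protein-coding genes tested, 4296 (34.7%) differed between 3x and WT IL-2 at an adjusted p under 0.1 by the quasi-likelihood test of edgeR, its p-values adjusted after Benjamini and Hochberg, which is the test behind every call and adjusted p below. Higher levels with 3x were called for 2099 genes (16.9%) and lower levels for 2197 (17.7%). Most differences were small. The median absolute log2 fold change of the called genes was 0.28, and 3065 of them moved by less than 0.5. A change of at least 1 on the log2 scale was called for 463 genes (3.74%), of which 47 were higher and 416 lower with 3x. Of these, 34 of the 47 rises and 345 of the 416 falls had a mean of at most 5 CPM over the 8 libraries, and above that level 13 rises stood against 71 falls. Above 50 CPM, 1075 of 4164 genes were higher and 516 were lower, and 2 and 8 of them moved by at least 1. The 4 libraries of one group all lay above the 4 of the other for 3928 genes (31.7%), 3284 of which were called. The median log2 fold change of all tested genes was 0.00046. The marker-adjusted model, whose standard errors were a median of 1.54 times as large, called 1152 of the 12392 genes. Of these, 811 were among the 4296, and 805 of those had the same sign. The list counts given below for that model stand beside its 1152 of 12392, and not beside 34.7%.

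**Figure D2:**
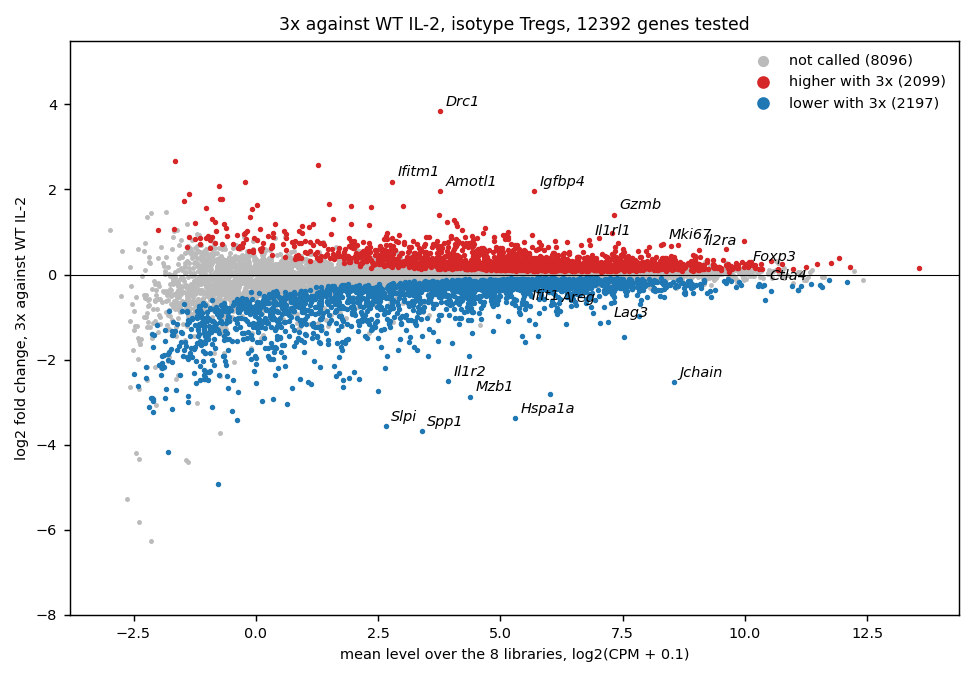
Log2 fold change of 3x against WT IL-2 (vertical axis) against the mean level over the 8 libraries in log2(CPM + 0.1) (horizontal axis) for 12392 genes, with 2099 higher (red), 2197 lower (blue) and the rest (grey) not called. Drc1, Ifitm1, Igfbp4 and Amotl1 stand out above and Spp1, Slpi and Hspa1a below, while Foxp3 (0.19) and Ctla4 (-0.25) lie close to 0.

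Among the 10 genes of the IL-2 receptor and its JAK-STAT5 pathway, 3 were higher, 2 lower and 5 not called (50% called, beside 34.7% of all tested genes, and 2 called in the marker-adjusted model), with a median log2 fold change of -0.0022. Il2ra was measured at 429, 415, 417 and 463 CPM in WT IL-2 libraries 1, 2, 3a and 3b and at 761, 556, 591 and 649.6 CPM in 3x libraries 1 to 4. Every 3x library was above every WT IL-2 library, with a log2 fold change of 0.57 ± 0.09 (SE, adjusted p = 6.12e-05) and group means of 364 CPM with PBS and 494 CPM with H16R. Il2rb, the signalling beta chain, was 968, 1040.5, 977 and 997 CPM with WT IL-2 and 1446, 1080.1, 1139.5 and 1234 CPM with 3x, again without overlap (log2 fold change 0.30 ± 0.06, adjusted p = 0.000817). The gene of the common gamma chain, Il2rg, was not called (means of 629 and 626 CPM). Downstream, Jak3 was lower in all 3x libraries (472 to 542 CPM with WT IL-2, 363 to 395 CPM with 3x, log2 fold change -0.40 ± 0.05, adjusted p = 5.96e-06). Jak1 rose slightly (log2 fold change 0.14 ± 0.05), Stat5a fell slightly (-0.17 ± 0.05) and Stat5b was not called (0.00 ± 0.04). These and Il2rg were picked for completeness after their values were seen, and have no value from the marker-adjusted model here.

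Of 15 genes known as STAT5 targets or feedback regulators, 6 were higher with 3x and 4 lower, with a median of 0.11, beside 16.9% of all tested genes higher and 17.7% lower. Socs2, which encodes a suppressor of cytokine signalling, was 62.8, 59.8, 54.7 and 68.1 CPM with WT IL-2 and 130.5, 79.1, 91.3 and 113 CPM with 3x. The groups did not overlap and the log2 fold change was 0.75 ± 0.13 (adjusted p = 7.91e-05). Cish, another STAT5-induced feedback gene, overlapped between the groups (229 to 275 and 247 to 285 CPM) and was not called (log2 fold change 0.11 ± 0.06, adjusted p = 0.188). The D-type cyclins Ccnd2 and Ccnd3, which drive entry into the cell cycle, were higher (log2 fold changes 0.31 ± 0.07 and 0.44 ± 0.07, adjusted p = 0.000924 and 4.28e-05), with Ccnd2 at 277 to 325 CPM with WT IL-2 and 333 to 433 CPM with 3x. Lta, encoding lymphotoxin alpha, and Nfil3, encoding a basic leucine zipper factor, were lower (log2 fold changes -0.58 ± 0.10 and -0.68 ± 0.08, adjusted p = 0.000107 and 1.11e-06). In the marker-adjusted model, 4 of the 15 genes were called. Il2ra (log2 fold change 0.21, adjusted p = 0.342), Il2rb (0.18, 0.3), Socs2 (0.29, 0.348) and Ccnd2 (0.25, 0.155) lost the call there, and Jak3, Nfil3, Lta and Ccnd3 kept it.

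Gzmb, which encodes the cytotoxic protease granzyme B and is in this list as a STAT5 target, rose most among its members. It was 112, 55.3, 106 and 78.9 CPM with WT IL-2 and 301, 171, 216 and 248 CPM with 3x, 2.65-fold higher without overlap (log2 fold change 1.41 ± 0.23, adjusted p = 4.26e-05), and the means were 11.0 CPM with PBS and 178 CPM with H16R. With the marker covariate the value was 0.78 (adjusted p = 0.171). The RefSeq promoters of Gzmb and Lta, which moved in opposite directions, are shown because both hold the core letters of a STAT site, the GAS motif, here searched as TTCNNNGAA on both strands. The windows run from 250 bases before to 50 bases after the start of transcription in GRCm38.p6, both on the minus strand, at chr14:56262285-56262584 for Gzmb and chr17:35205302-35205601 for Lta, are printed in the direction of transcription, and have the motif in capitals.
Gzmb: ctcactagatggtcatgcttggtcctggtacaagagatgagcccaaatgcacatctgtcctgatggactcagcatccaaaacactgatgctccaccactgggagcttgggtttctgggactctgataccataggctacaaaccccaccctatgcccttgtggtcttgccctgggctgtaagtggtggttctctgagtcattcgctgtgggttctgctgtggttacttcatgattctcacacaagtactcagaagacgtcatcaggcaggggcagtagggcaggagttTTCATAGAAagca
Lta: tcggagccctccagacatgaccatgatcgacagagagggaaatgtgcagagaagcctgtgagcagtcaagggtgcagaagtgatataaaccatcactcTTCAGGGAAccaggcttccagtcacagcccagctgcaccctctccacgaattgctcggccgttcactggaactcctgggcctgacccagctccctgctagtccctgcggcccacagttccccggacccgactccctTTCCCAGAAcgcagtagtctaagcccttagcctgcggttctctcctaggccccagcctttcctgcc
The motif starts 37 bases after the start in Gzmb, and the first of 2 matches in Lta lies 152 bases before it. Of the 14 promoters that the table holds for 12 of the 15 STAT5 genes, 4 (28.6%) contained these letters, beside 8.30% of all 32851 promoters. Such a match is a description of letters and not of binding.

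Lineage genes of the Treg were in part slightly higher with 3x, with 8 of 15 higher, 2 lower and a median of 0.12, beside 16.9% of all tested genes higher. Foxp3, the lineage-defining transcription factor, was 966, 986, 1014 and 1017 CPM with WT IL-2 and 1132, 1106, 1158 and 1136 CPM with 3x. Every 3x library lay above every WT IL-2 library although the difference was only 1.14-fold (log2 fold change 0.19 ± 0.06, adjusted p = 0.013), and it was near 0 in the marker-adjusted model (0.02, adjusted p = 0.935). Means were 740.5 CPM with PBS and 1156 CPM with H16R. Bach2, a repressor that restrains effector differentiation, rose from 63.4 to 72.1 to 91.4 to 108 CPM (log2 fold change 0.54 ± 0.11, adjusted p = 0.000715), and the chromatin organiser Satb1 rose too (0.39 ± 0.09, adjusted p = 0.00112) but was not called with the marker covariate (0.09, adjusted p = 0.737), where 2 of the 15 were called. Nfatc1, a calcium-dependent factor downstream of the TCR, fell (log2 fold change -0.31 ± 0.05, adjusted p = 9.82e-05).

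**Figure D3:**
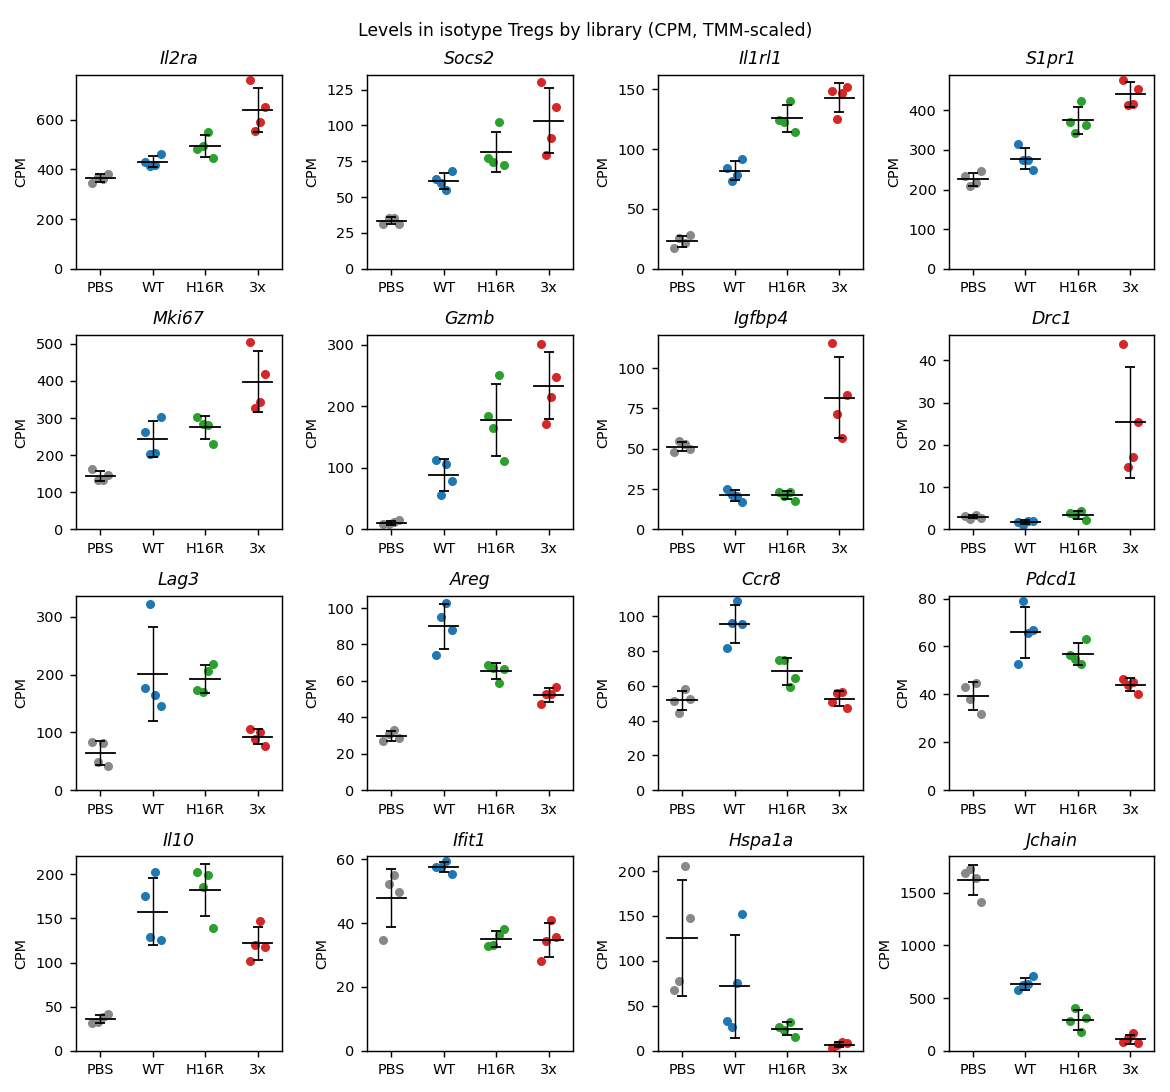
CPM of 16 genes in each isotype Treg library (vertical axes) by treatment (horizontal axes, 4 libraries each), with points for libraries, long bars for means and whiskers for SD. The 3x libraries are above all WT IL-2 libraries for Il2ra, Socs2, Il1rl1, S1pr1, Mki67, Gzmb, Igfbp4 and Drc1 and below them for Lag3, Areg, Ccr8, Pdcd1, Ifit1, Hspa1a and Jchain, while those of Il10 overlap.

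Molecules through which Tregs suppress other cells were mostly lower with 3x. Of 16 tested, 11 fell and 1 rose (Gzmb), beside 17.7% of all tested genes lower and 16.9% higher. The median log2 fold change was -0.44, and 9 of the 16 were called in the marker-adjusted model. Areg, encoding the tissue-repair factor amphiregulin, was 74.1, 95.3, 103 and 87.8 CPM with WT IL-2 and 47.4, 52.8, 52.8 and 56.4 CPM with 3x. The groups were fully separate (1.72-fold lower, log2 fold change -0.78 ± 0.11, adjusted p = 9.31e-06), and the mean was 29.9 CPM with PBS and 65.3 CPM with H16R. Lag3, an inhibitory receptor that binds MHC class II, was 176, 322, 164 and 145 CPM with WT IL-2 and 105, 88.2, 101 and 76.0 CPM with 3x (log2 fold change -1.12 ± 0.20, adjusted p = 0.000108). WT IL-2 library 2 stood far above the other 3, and without it the value was -0.80 (adjusted p = 0.00111). Lrrc32, encoding GARP, which holds latent TGF-beta on the cell surface, fell from 573 to 597 to 475 to 513 CPM, a difference of -0.22 ± 0.06 that was larger than the spread of either group (adjusted p = 0.00759). Itgb8, whose integrin activates latent TGF-beta, was lower as well (log2 fold change -0.52 ± 0.14, adjusted p = 0.00549), as was Cd83 (135 to 208 and 62.4 to 95.3 CPM, log2 fold change -1.15 ± 0.16, adjusted p = 8.19e-06, and -0.76, adjusted p = 0.0517, with the covariate).

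Ctla4 and Il10 differed by less, and their calls depended on single libraries. Ctla4, the receptor that removes costimulatory ligands from antigen-presenting cells, was 1328, 1664, 1466 and 1378 CPM with WT IL-2 and 1171, 1214, 1279 and 1254 CPM with 3x (log2 fold change -0.25 ± 0.10, adjusted p = 0.0575). The groups did not overlap, but the call was lost without WT IL-2 library 2 (-0.17, adjusted p = 0.233) or 3x library 1 (-0.22, adjusted p = 0.138). Il10, the gene of the anti-inflammatory cytokine, overlapped between WT IL-2 (175, 129, 203 and 125 CPM) and 3x (102, 120.1, 147 and 118 CPM), with a log2 fold change of -0.37 ± 0.14 (adjusted p = 0.0452). It was no longer called without WT IL-2 library 1 (-0.32, adjusted p = 0.116) or 3a (-0.23, 0.241) or without 3x library 1 (-0.30, 0.159) or 4 (-0.36, 0.103). With the covariate both were called with larger values (Ctla4 -0.53, adjusted p = 0.0209 and Il10 -0.60, 0.0994). The PBS mean of Il10 was 36.1 CPM, below every library of both groups.

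Transcription regulators of effector Tregs followed the suppressor molecules, with 13 of 18 lower, 1 higher (77.8% called, beside 34.7% of all tested genes), a median of -0.37 and 9 of 18 called in the marker-adjusted model. The largest fall of the list was that of Batf3 (-1.55), which is also among the dendritic cell markers. Nfil3 was 169 to 207 CPM with WT IL-2 and 114 to 129.5 CPM with 3x. Tbx21, encoding T-bet (log2 fold change -0.57 ± 0.10, adjusted p = 0.000107), fell, and its WT IL-2 levels of 23.8 to 28.2 CPM did not overlap with those of 3x (15.8 to 18.1 CPM). T-bet directs a helper T cell program that a subset of Tregs shares.

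Surface markers of effector and tissue Tregs split, with 5 of 17 higher and 8 lower (76.5% called, beside 34.7% of all tested genes), and 7 were called in the marker-adjusted model. Il1rl1, encoding the IL-33 receptor ST2, was 83.9, 73.4, 78.6 and 92.0 CPM with WT IL-2 and 148, 125, 147 and 152 CPM with 3x, without overlap (log2 fold change 0.80 ± 0.11, adjusted p = 8.85e-06), beside 23.2 CPM with PBS and 126 CPM with H16R. Klrg1, a marker of terminally differentiated effector cells, was 165, 77.9, 195 and 156 CPM with WT IL-2 and 193, 206, 225 and 191 CPM with 3x (log2 fold change 0.46 ± 0.17, adjusted p = 0.047). WT IL-2 library 2 was the low one, and the call was lost without it (0.25, adjusted p = 0.181) and without 3x library 3 (adjusted p = 0.115), in a fit of the 8 libraries alone (0.45, adjusted p = 0.139) and with the marker covariate (0.67, adjusted p = 0.145). Ly6c1 rose (log2 fold change 0.92 ± 0.12, adjusted p = 4.50e-06, and 0.56, adjusted p = 0.0446, with the covariate). Opposite to these, Ccr8, a chemokine receptor of tissue Tregs, was 81.7, 96.1, 109 and 95.6 CPM with WT IL-2 and 51.0, 55.9, 56.4 and 47.5 CPM with 3x, and its log2 fold change of -0.86 ± 0.11 (adjusted p = 2.73e-06) stood beside a PBS mean of 51.6 CPM. Gpm6b, a membrane glycoprotein gene, fell (log2 fold change -1.38 ± 0.21, adjusted p = 2.47e-05). Icos, a costimulatory receptor of activated T cells, was 379 to 502 CPM with WT IL-2 and 336 to 371 CPM with 3x, and passed at an adjusted p of 0.0939 (log2 fold change -0.25 ± 0.11). It lost the call when WT IL-2 library 2 (-0.15, adjusted p = 0.387) or 3b (-0.27, 0.109) or 3x library 1 (-0.25, 0.15), 2 (-0.23, 0.169) or 4 (-0.24, 0.173) was left out, without the CPM filter (-0.25, 0.136) and with all biotypes (-0.25, 0.128). With the covariate it was called at a larger value (-0.57, adjusted p = 0.0312).

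Of 23 costimulatory and inhibitory receptors, 9 were lower and 3 higher (52.2% called, beside 34.7% of all tested genes), and 10 were called with the marker covariate. Pdcd1, encoding PD-1, which dampens TCR signalling, was 52.8, 78.8, 65.4 and 66.7 CPM with WT IL-2 and 46.3, 44.1, 45.3 and 40.2 CPM with 3x (log2 fold change -0.58 ± 0.11, adjusted p = 0.000237). No library overlapped, and the gene of one of its ligands, Pdcd1lg2, was lower too (-0.54 ± 0.08, adjusted p = 2.79e-05). In the TNF receptor superfamily, 8 of 17 were lower and 3 higher (64.7% called, and 5 of 17 with the covariate), and the falls included Tnfrsf8 (CD30, -0.89 ± 0.11, adjusted p = 1.66e-06), Tnfrsf9 (4-1BB, -0.37 ± 0.09, adjusted p = 0.00417) and Tnfrsf1b (TNFR2, -0.39 ± 0.08, adjusted p = 0.000387). The largest falls of this list were those of Cd40 (-1.51) and Tnfrsf13c, at means of at most 5 CPM. Which cells carried them cannot be told in bulk RNA. Tnfrsf18, encoding GITR, a receptor that Tregs carry at rest, overlapped between the groups at 246 to 260.4 and 225 to 274 CPM and was not called (log2 fold change -0.03 ± 0.07, adjusted p = 0.785).

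Early response genes of the TCR were in part lower with 3x. Of 19, 11 fell, none rose and the median was -0.30, beside 17.7% of all tested genes lower. Egr2, a zinc finger factor induced by TCR signalling, was 34.0, 52.3, 36.5 and 40.4 CPM with WT IL-2 and 20.0, 21.8, 20.7 and 20.4 CPM with 3x, and the groups were far apart relative to their spread (log2 fold change -0.98 ± 0.09, adjusted p = 4.90e-08). Nr4a1, the gene of the TCR reporter NUR77, was 1027, 918, 1216 and 1066 CPM with WT IL-2 and 860.0, 983, 1007 and 1019 CPM with 3x. The groups overlapped and Nr4a1 was not called (-0.13 ± 0.11, adjusted p = 0.407), whereas its relative Nr4a3 was lower (-0.59 ± 0.15, adjusted p = 0.00369). Fosb, part of the AP-1 complex, fell (log2 fold change -0.60 ± 0.12, adjusted p = 0.000376), and its PBS mean of 2426 CPM was above both groups. In the marker-adjusted model, 2 of the 19 were called, and among the named ones Egr2 (-0.89, adjusted p = 0.00119) and Nr4a3 (-0.74, 0.0586) stayed called while Fosb did not (-0.31, 0.318).

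Proximal TCR signalling had 9 of 24 members lower and 2 higher (45.8% called, beside 34.7% of all tested genes), and 11 were called in the marker-adjusted model. Zap70, the kinase recruited to the phosphorylated receptor, was 313 to 339 CPM with WT IL-2 and 232 to 262 CPM with 3x (log2 fold change -0.38 ± 0.06, adjusted p = 2.30e-05). Malt1, a protease that links the receptor to NF-kB, fell (log2 fold change -0.49 ± 0.10, adjusted p = 0.000588), or by 0.29 on the log2 scale without the high WT IL-2 library 2 (adjusted p = 0.00331). The adaptor gene Grap2 rose (0.40 ± 0.06, adjusted p = 2.68e-05). NF-kB subunits and regulators had 9 of 23 lower and 2 higher (47.8% called), with Relb (-0.54 ± 0.08, adjusted p = 1.54e-05) and Nfkb2 (-0.46 ± 0.08, adjusted p = 9.06e-05), the subunits of the non-canonical pathway, and the inhibitor gene Nfkbie (-0.37 ± 0.05, adjusted p = 9.80e-06) among them. The marker covariate ended the calls of Nfkb2 (-0.30, adjusted p = 0.129) and Nfkbie (-0.19, 0.117), and 2 of the 23 were called with it. MAPK phosphatases and Sprouty inhibitors had 7 of 16 lower and 1 higher, with 3 called under the covariate, and were led by Dusp14 (14.1 to 27.1 and 6.07 to 7.10 CPM, -1.57 ± 0.18, adjusted p = 6.29e-07).

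Genes of naive and recirculating T cells moved the other way, with 13 of 17 higher with 3x, none lower and a median of 0.38, beside 16.9% of all tested genes higher. S1pr1, the receptor by which lymphocytes leave lymphoid organs, was 315, 274, 274 and 249 CPM with WT IL-2 and 477, 413, 417 and 455 CPM with 3x (log2 fold change 0.66 ± 0.07, adjusted p = 3.06e-07). Its levels did not overlap, and the mean was 226 CPM with PBS and 375 CPM with H16R. Tcf7, the TCF1 gene of naive and memory-like T cells, was no part of this rise, at 375 to 458 and 362 to 468 CPM (log2 fold change -0.04 ± 0.09, adjusted p = 0.794). With the marker covariate 4 of the 17 were called, S1pr1 (0.40, adjusted p = 0.013) and Bach2 (0.54, 0.0646) among them.

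Migration and cell shape genes were mixed. Chemokine receptors had 6 of 18 lower and 2 higher (44.4% called, beside 34.7% of all tested genes). Cxcr5, the receptor for entry into B cell follicles, fell from 47.2 to 61.8 to 25.7 to 32.4 CPM (log2 fold change -0.88 ± 0.09, adjusted p = 1.90e-07), whereas Ccr2, a receptor for entry into inflamed tissue, rose from 68.3 to 87.0 to 114 to 134 CPM (0.70 ± 0.13, adjusted p = 0.000161), a call that ended in the marker-adjusted model (0.31, adjusted p = 0.344). Galectin, S100 and annexin genes had 12 of 20 higher and none lower, and 4 were called with the marker covariate. Vim, encoding the filament protein vimentin, was 817, 639, 785 and 726 CPM with WT IL-2 and 1528, 1071, 1178 and 1379.7 CPM with 3x (log2 fold change 0.80 ± 0.10, adjusted p = 3.80e-06), and Anxa2 (0.74 ± 0.13, adjusted p = 0.000131) and Lgals3 (0.72 ± 0.19, adjusted p = 0.00522) rose with it. Small GTPases and cytoskeleton regulators had 18 of 26 higher by small amounts, at most 0.34, and 1 lower, Rhob (-0.65 ± 0.13, adjusted p = 0.00042). With the marker covariate, 3 of those 26 were called and Rhob was not (-0.17, adjusted p = 0.608). Integrins and adhesion genes had 7 of 22 higher and 8 lower (68.2% called, and 8 of 22 with the covariate), with Itga2 up (0.59 ± 0.11, adjusted p = 0.000157).

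All 30 mitotic genes tested were higher with 3x, beside 16.9% of all tested genes, with a median of 0.63 and values from 0.30 to 1.00. Mki67, encoding the proliferation antigen Ki-67, was 262, 202, 207 and 302 CPM with WT IL-2 and 505, 328, 343 and 418 CPM with 3x, and every 3x library was above every WT IL-2 library (log2 fold change 0.71 ± 0.13, adjusted p = 0.000269). Cenpf, a kinetochore gene, was 26.4, 17.4, 20.9 and 29.7 CPM with WT IL-2 and 61.1, 38.6, 37.7 and 51.3 CPM with 3x, 2.00-fold higher (log2 fold change 1.00 ± 0.15, adjusted p = 2.29e-05). Ccnb1, the mitotic cyclin B1, overlapped at 1 library of each group (22.3, 12.8, 16.5 and 15.1 CPM and 35.3, 21.6, 25.4 and 27.6 CPM, log2 fold change 0.72 ± 0.16, adjusted p = 0.00115). PBS means were below both groups for Mki67 (144 CPM), Cenpf (15.3 CPM) and Ccnb1 (10.7 CPM). In the marker-adjusted model 24 of the 30 stayed called and the median was 0.75. The promoters of Cenpf and of Kif11, a spindle motor gene of the same list, are shown because they hold the cell cycle homology region (CHR), the element of genes expressed in G2 and mitosis, here searched as TTTGAA on both strands and set in capitals. Both windows are from RefSeq in GRCm38.p6, with Cenpf at chr1:189688037-189688336 on the minus strand and Kif11 at chr19:37376132-37376431 on the plus strand.
Cenpf: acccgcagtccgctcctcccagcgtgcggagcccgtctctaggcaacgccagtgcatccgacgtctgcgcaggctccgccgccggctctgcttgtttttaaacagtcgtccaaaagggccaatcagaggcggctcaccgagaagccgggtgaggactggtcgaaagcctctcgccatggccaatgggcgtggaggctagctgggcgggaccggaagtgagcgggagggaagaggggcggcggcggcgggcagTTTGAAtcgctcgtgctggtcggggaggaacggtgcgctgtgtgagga
Kif11: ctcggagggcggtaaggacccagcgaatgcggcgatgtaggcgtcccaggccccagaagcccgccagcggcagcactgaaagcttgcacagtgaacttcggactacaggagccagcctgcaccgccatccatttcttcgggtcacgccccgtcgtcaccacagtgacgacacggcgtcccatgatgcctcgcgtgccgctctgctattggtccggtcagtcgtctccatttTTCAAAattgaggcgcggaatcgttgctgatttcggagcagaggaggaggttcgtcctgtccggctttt
The letters start 2 bases after the transcription start in Cenpf and 19 bases before it in Kif11, where they lie on the other strand. They were present in 20 of the 27 promoters (74.1%) that the table holds for 26 of the 30 genes, beside 17.9% of all 32851 promoters and 12.3% of the promoters of tested genes.

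Genes of DNA replication and S phase had 3 of 32 higher, 3 lower and a median of -0.01, and the share called, 18.8%, was below the 34.7% of all tested genes. The replicative helicase gene Mcm6 was lower (237 to 302 and 184 to 221 CPM, log2 fold change -0.39 ± 0.07, adjusted p = 0.000105), as was the repair gene Ung (-0.57 ± 0.10, adjusted p = 9.95e-05), and Rrm2, the regulated subunit of ribonucleotide reductase, was higher (0.58 ± 0.14, adjusted p = 0.00246). With the marker covariate 2 of the 32 were called, and Ung (-0.38, adjusted p = 0.128) and Rrm2 (0.59, 0.104) were not. Among D cyclins and CDK inhibitors, 6 of 15 were higher and none lower, the inhibitor genes Cdkn2c (0.53 ± 0.10, adjusted p = 0.000299) and Cdkn2d (0.63 ± 0.09, adjusted p = 6.06e-06) included. Genes of the Bcl2 family and cell death had 6 of 19 higher and 5 lower, with 3 called under the covariate, and the falls were led by Bcl2a1d (-1.02 ± 0.11, adjusted p = 1.90e-07) and Pmaip1, encoding NOXA (-0.72 ± 0.08, adjusted p = 1.92e-07). Bcl2a1b and Bcl2a1d are near-identical copies, so the division of reads between them is uncertain.

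Metabolic genes differed by pathway. Of 23 sterol synthesis genes, 16 were higher, none lower and the median was 0.32. Sqle, encoding squalene epoxidase, was 14.4, 13.4, 13.3 and 11.6 CPM with WT IL-2 and 21.8, 17.6, 16.5 and 23.7 CPM with 3x (0.59 ± 0.12, adjusted p = 0.000447). Mvd, of the mevalonate pathway, rose from 14.4 to 17.5 to 24.2 to 31.0 CPM (0.81 ± 0.13, adjusted p = 3.60e-05). With the marker covariate 1 of the 23 was called, Mvd stayed (0.66, adjusted p = 0.0457) and Sqle did not (0.15, adjusted p = 0.642). Glycolysis genes had 8 of 24 lower and 4 higher. Hk2, the inducible hexokinase, fell from 14.6 to 16.6 to 9.18 to 10.2 CPM (-0.69 ± 0.09, adjusted p = 4.06e-06, and -0.36, adjusted p = 0.0695, with the covariate) and the lactate exporter gene Slc16a3 was lower (-0.62 ± 0.14, adjusted p = 0.00151), while Pdk1, whose kinase inhibits the pyruvate dehydrogenase complex, rose (0.39 ± 0.07, adjusted p = 0.000105). Under the covariate 2 of the 24 were called, and Slc16a3 (-0.60, adjusted p = 0.117) and Pdk1 (0.18, 0.275) were not. Nuclear genes of oxidative phosphorylation (11 of 75 called, 10 higher), cytoplasmic ribosomal proteins (8 of 47, all higher), ribosome biogenesis (8 of 32), proteasome subunits (10 of 40) and GIMAP GTPases (2 of 8) had smaller shares called than the 34.7% of all tested genes, with no test of that difference. In the PI3K, Akt and Foxo list, 9 of 22 were higher and 2 lower, and 6 were called under the covariate. This list was drawn up with Pdk1 in it, so the pyruvate dehydrogenase kinase gene is 1 of the 9. The rises were led by Pik3r5, a regulatory subunit of PI3K gamma (93.2, 82.6, 84.3 and 91.0 CPM with WT IL-2, 141, 139, 141 and 146 CPM with 3x, 0.69 ± 0.05, adjusted p = 8.92e-10).

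Stress genes were lower with 3x. Of 26 heat shock and endoplasmic reticulum chaperone genes, 18 fell and none rose, beside 17.7% of all tested genes lower, the median was -0.34, and 5 were called in the marker-adjusted model. Hspa1a and Hspa1b, the inducible HSP70 genes, are near-identical, so that their reads may be divided arbitrarily. Hspa1a was 33.1, 26.6, 75.4 and 152 CPM with WT IL-2 and 3.43, 6.28, 9.23 and 8.59 CPM with 3x (log2 fold change -3.38 ± 0.60, adjusted p = 0.000135), and Hspa1b 49.0 to 230.4 and 8.10 to 21.8 CPM (-2.81 ± 0.50, adjusted p = 0.000161). The WT IL-2 libraries varied widely among themselves, WT IL-2 library 3b being highest, and the PBS mean of Hspa1a was 125 CPM. With the covariate the values were -2.0 (adjusted p = 0.138) and -1.83 (0.121). Hsph1, a co-chaperone gene, was lower in both models (-0.77 ± 0.16, adjusted p = 0.000608, and -0.92, 0.0273). Targets of ATF4 and amino acid genes had 13 of 22 lower and 1 higher (63.6% called), and 3 were called with the covariate. Atf3 fell from 54.7 to 86.6 to 26.3 to 36.7 CPM (-1.17 ± 0.19, adjusted p = 5.93e-05), and Slc7a5 and Slc3a2, the 2 chains of a large neutral amino acid transporter, were lower (-0.35 ± 0.08 and -0.34 ± 0.05, adjusted p = 0.00107 and 4.28e-05). All 3 lost the call with the covariate (Atf3 -0.37, adjusted p = 0.368, Slc7a5 -0.14, 0.499 and Slc3a2 -0.14, 0.268).

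Interferon-stimulated genes were lower in part. Of 32 type I genes, 13 fell and 1 rose (43.8% called, beside 34.7% of all tested genes), with a median of -0.14. Ifit1, which binds viral RNA, was 57.5, 57.7, 59.3 and 55.5 CPM with WT IL-2 and 28.0, 34.5, 41.0 and 35.6 CPM with 3x, without overlap (log2 fold change -0.72 ± 0.15, adjusted p = 0.000727). Mx1, an antiviral GTPase, fell from 11.4 to 14.7 to 4.48 to 6.89 CPM (-1.14 ± 0.16, adjusted p = 1.19e-05). Irf7, the factor that amplifies the response, overlapped and was not called (46.0 to 57.6 and 42.3 to 50.2 CPM, -0.13 ± 0.09, adjusted p = 0.305). Among GTPases induced by interferon gamma, 10 of 18 were lower and 2 higher (66.7% called), with Iigp1 falling from 57.1 to 102 to 33.6 to 41.6 CPM (-0.90 ± 0.15, adjusted p = 4.77e-05). In the marker-adjusted model 6 of the 32 and 7 of the 18 were called, Ifit1, Mx1 and Iigp1 among them.

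Helper cytokine genes had 11 of 18 lower, none higher and a median of -0.42, beside 17.7% of all tested genes lower. Spp1, encoding osteopontin, was 8.73, 54.3, 9.52 and 4.98 CPM with WT IL-2 and 2.27, 0.878, 1.76 and 1.03 CPM with 3x. WT IL-2 library 2 was far above the rest, and the log2 fold change of -3.68 ± 0.74 (adjusted p = 0.000502) was -2.36 (adjusted p = 0.009) without it. Under the marker covariate 6 of the 18 were called, Spp1 not among them (-2.97, adjusted p = 0.139). Tnfsf8, the CD30 ligand gene, fell (log2 fold change -0.79 ± 0.20, adjusted p = 0.00339), or by 0.49 on the log2 scale without WT IL-2 library 2 (adjusted p = 0.0415), and the receptor gene Tnfrsf8 fell as given above. Granzymes and cytotoxic genes had 9 of 22 lower and 2 higher (50% called, beside 34.7% of all tested genes), the falls including the chemokine genes Ccl4 (-1.13 ± 0.24, adjusted p = 0.000767) and Xcl1 (-0.67 ± 0.19, adjusted p = 0.00968) against the rise of Gzmb. With the covariate 4 of the 22 were called, and Ccl4 (-0.35, adjusted p = 0.569) and Xcl1 (-0.76, 0.139) were not. Of 24 other cytokine receptors, 11 were lower and 6 higher (70.8% called), and 11 were called with the covariate. Il1r2, the decoy receptor of IL-1, was 13.8, 48.4, 17.9 and 23.7 CPM with WT IL-2 and 4.83, 5.16, 5.60 and 2.58 CPM with 3x (-2.51 ± 0.36, adjusted p = 9.53e-06), and the signalling receptor Il1r1 was lower too (-1.22 ± 0.21, adjusted p = 0.00012).

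**Figure D4:**
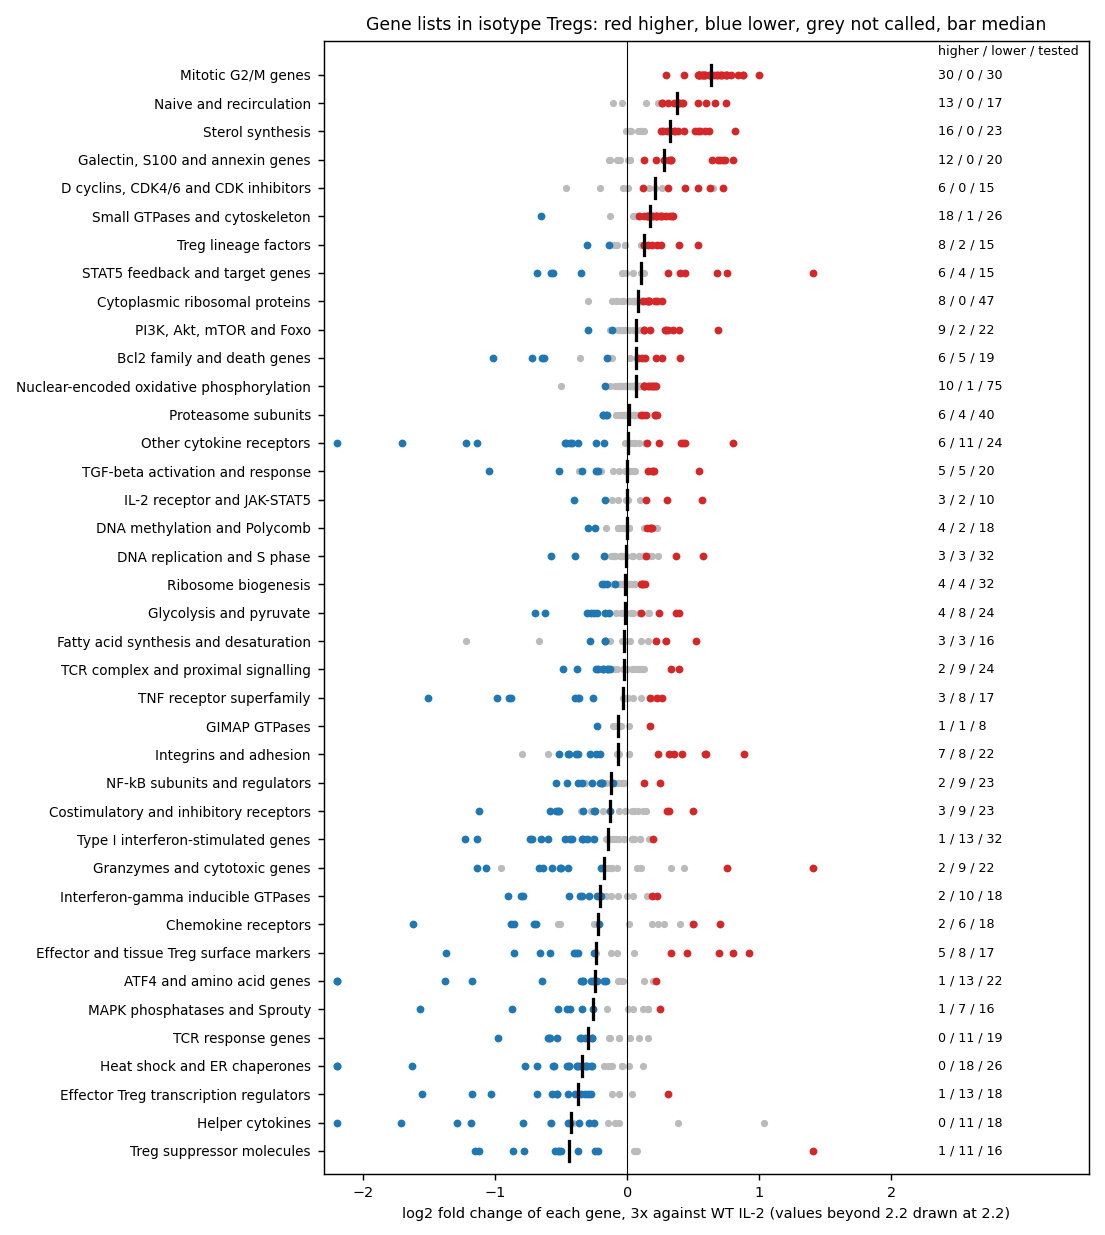
Log2 fold change of 3x against WT IL-2 (horizontal axis) of each tested member of the gene lists (vertical axis, ordered by median), with red for higher, blue for lower and grey for not called, and a black bar at the list median. Mitotic genes stand highest (30 of 30 higher, median 0.63) and suppressor molecules and helper cytokines lowest (11 of 16 and 11 of 18 lower, medians of -0.44 and -0.42).

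The largest rises among genes with a mean above 5 CPM and no overlap were led by Drc1. Drc1, at chr5:30281388-30366695 in GENCODE vM21, encodes a component of the dynein regulatory complex of motile cilia. It was 1.78, 1.16, 2.00 and 2.07 CPM with WT IL-2 and 43.8, 14.7, 17.1 and 25.5 CPM with 3x, 14.4-fold higher (log2 fold change 3.85 ± 0.29, adjusted p = 8.92e-10), with 2.98 CPM in the PBS group and 3.45 CPM in the H16R group. Igfbp4, encoding a binding protein of insulin-like growth factors, was 25.3, 21.3, 20.8 and 17.0 CPM with WT IL-2 and 116, 71.7, 56.8 and 83.0 CPM with 3x (1.95 ± 0.15, adjusted p = 8.92e-10). The PBS mean of 51.4 CPM lay between the groups and the H16R mean of 21.3 CPM at the WT IL-2 level. Amotl1, encoding an angiomotin-like scaffold of cell junctions, was 5.77, 4.47, 6.03 and 5.83 CPM with WT IL-2 and 24.1, 19.0, 23.7 and 18.9 CPM with 3x (1.96 ± 0.16, adjusted p = 1.84e-09), beside 0.68 CPM with PBS and 11.2 CPM with H16R. These genes kept the call in the marker-adjusted model, with values of 3.14, 1.59 and 1.64.

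Nckap5, Nhsl2, Myo6, Gpld1 and Sorcs2 were also among the 12 largest rises, from 1.08 (Sorcs2) to 1.62 (Nckap5), with adjusted p from 1.90e-07 (Nhsl2) to 3.98e-06 (Myo6), and Myo6 was at 0.80 with the covariate (adjusted p = 0.0468). Sorcs2, a sorting receptor gene, was 14.1 to 20.3 CPM with WT IL-2 and 29.6 to 42.3 CPM with 3x, beside a mean of 31.2 CPM with PBS. The interferon-induced transmembrane genes Ifitm1, Ifitm2 and Ifitm3 also rose (2.19 ± 0.38, 1.15 ± 0.27 and 1.40 ± 0.34, adjusted p = 0.000123, 0.00183 and 0.00297), opposite in direction to the 13 type I interferon-stimulated genes that fell. Ifitm1 was 2.30, 1.97, 2.87 and 2.72 CPM with WT IL-2 and 16.7, 4.66, 9.70 and 13.7 CPM with 3x, 3x library 1 being highest and library 2 lowest, and it lost the call with the covariate (1.77, adjusted p = 0.103). The Ifitm genes are close paralogs that can share reads.

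The largest falls included 3 of the plasma cell markers. Jchain, the joining chain of secreted antibodies, was 580.4, 622, 632 and 709 CPM with WT IL-2 and 80.2, 119, 166 and 75.6 CPM with 3x (-2.53 ± 0.33, adjusted p = 2.85e-06), against 1619 CPM with PBS. Mzb1 (-2.87 ± 0.35, adjusted p = 1.13e-06) and Sdc1 (-1.93 ± 0.28, adjusted p = 1.54e-05) fell with it, and Ckap4 (-2.19 ± 0.30, adjusted p = 5.96e-06), Cacna1h (-2.73 ± 0.38, adjusted p = 6.59e-06), Slpi (-3.57 ± 0.53, adjusted p = 1.77e-05), Ly6d (-1.92 ± 0.42, adjusted p = 0.00117) and Ly6c2 (-1.92 ± 0.29, adjusted p = 1.81e-05) were of similar size. Slpi, a protease inhibitor gene, was 7.5 to 16.1 CPM with WT IL-2 and at most 1.25 CPM with 3x. Under the marker covariate Sdc1 (-0.56, adjusted p = 0.172), Ly6c2 (-0.57, 0.234) and Ly6d (0.21, 0.591) were no longer called, Ly6d with the opposite sign. Mzb1 (-1.3, adjusted p = 0.00653), Jchain (-0.86, 0.0552), Cacna1h (-0.94, 0.037), Ckap4 (-0.78, 0.0548) and Slpi (-1.97, 0.0535) stayed called with smaller falls. Jchain, Mzb1 and Sdc1 are themselves among the 29 markers summed in the covariate, Jchain with the most counts of these 3, so their values there are not independent of it. Cacna1h and Ckap4 are not among the 29 and had smaller falls there as well.

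The same comparison in mice given the MHC class II blocking antibody shares no library with the one above, and its difference from it was tested as an interaction. That arm had 8511 called genes (68.7%), 3716 of them higher with 3x and 4795 lower. Of the 4296 genes called in the isotype arm, 2627 were called there with the same sign, 564 with the opposite sign and 1105 were not called. The difference between the arms was called for 5424 genes (43.8%), 1961 of them among the 4296. One WT IL-2 library of the blocked arm stood apart, with macrophage markers summing to 1240 CPM where the lowest of that group had 45.6 CPM, and plasma cell markers in that arm were 1820 to 3770 CPM with WT IL-2 and 770 to 1630 CPM with 3x. The 8 T cell and Treg markers summed there to 3610 to 4880 CPM with WT IL-2 and 5470 to 6130 CPM with 3x, whereas the isotype groups overlapped. Of these 8 markers, 7 had a called difference between the arms, beside 43.8% of all tested genes, all lower with isotype. What part this sum has in the differences of other Treg genes between the arms was not tested. Leaving out 1 library at a time gave 4657 to 5902 called differences between the arms.

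**Figure D5:**
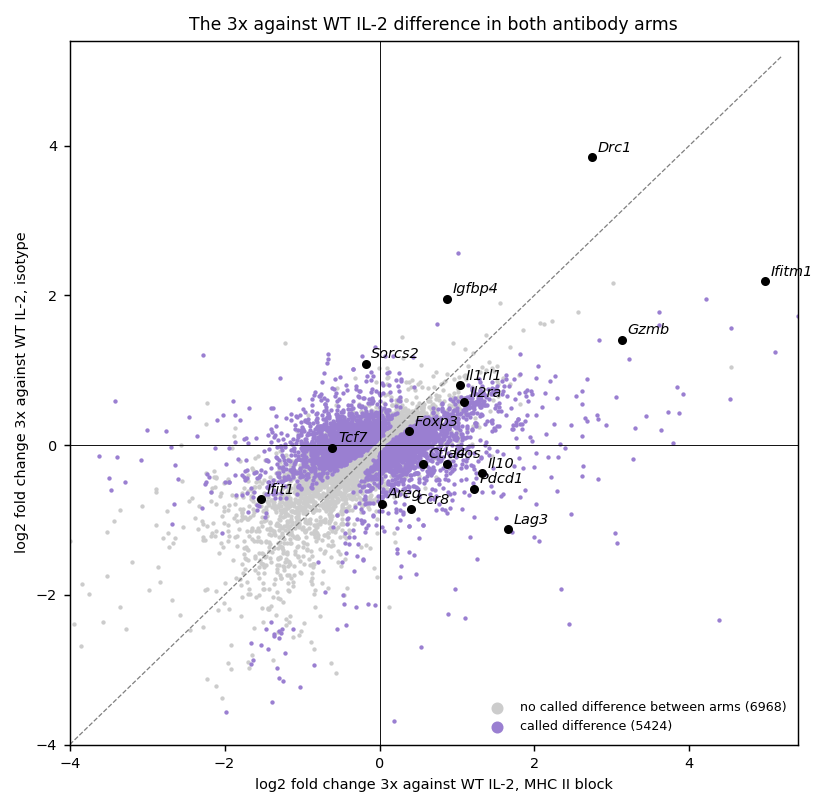
Log2 fold change of 3x against WT IL-2 in the isotype arm (vertical axis) against that in the MHC class II blocked arm (horizontal axis), with the 5424 genes whose difference between the arms was called in purple, the rest in grey, equality as a dashed line, and 25 genes outside the axes not drawn. Lag3, Pdcd1, Il10, Icos, Ctla4, Areg and Ccr8 lie to the right of the line, and Igfbp4, Drc1, Sorcs2, Ifit1 and Tcf7 to its left.

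Lag3, Pdcd1 and Il10, lower with 3x in the isotype arm, had positive values under the block. Lag3 had a log2 fold change of -1.12 with isotype and 1.66 with the block (difference -2.79 ± 0.28, adjusted p = 3e-08), Pdcd1 of -0.58 and 1.22 (difference -1.80 ± 0.15, adjusted p = 2.88e-09), and Il10 of -0.37 and 1.33 (difference -1.70 ± 0.20, adjusted p = 3.41e-07). Icos (-1.12 ± 0.16, adjusted p = 5.34e-06), Ctla4 (-0.80 ± 0.14, adjusted p = 6.34e-05) and Ccr8 (-1.27 ± 0.16, adjusted p = 8.04e-07) differed in the same direction. Areg had values of -0.78 with isotype and 0.03 with the block (difference -0.82 ± 0.16, adjusted p = 0.000282). Across the suppressor list, 11 of 16 were lower in the isotype arm, and with the block 9 were higher and 4 lower, beside 30% of all tested genes higher and 38.7% lower in that arm.

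Il2ra rose in both arms, by 0.57 with isotype and 1.09 with the block, and the rise was smaller with isotype (difference -0.52 ± 0.13, adjusted p = 0.00339). Foxp3 (0.19 and 0.38, difference -0.19 ± 0.08, adjusted p = 0.0558) had a smaller rise with isotype as well, although the difference of Foxp3 between arms was lost without blocked WT IL-2 library 1 (adjusted p = 0.144) or blocked 3x library 1 (0.106). Gzmb rose by 1.41 and 3.13 (difference -1.72 ± 0.31, adjusted p = 0.00014). For the mitotic genes the medians were 0.63 with isotype and 1.3 with the block, and 27 of 30 had a called difference, beside 43.8% of all tested genes, all smaller with isotype. Of the 32 DNA replication genes 29 were higher with 3x under the block, beside 30% of all tested genes, against 3 with isotype, and 27 differences were called. Igfbp4 (1.08 ± 0.21, adjusted p = 0.000278), Drc1 (1.10 ± 0.39, adjusted p = 0.0265, and 0.70, adjusted p = 0.0938, without 3x library 1) and Sorcs2 (1.26 ± 0.16, adjusted p = 1.15e-06) rose more with isotype, and 14 of the 17 naive and recirculation genes had a called difference with the higher value in the isotype arm.

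The most negative differences between the arms above 5 CPM were those of Vdr (-4.37 ± 0.44), Il21 (-4.22 ± 0.58), Spp1 (-3.87 ± 1.00), Gcg (-3.76 ± 0.46) and Lgals7 (-3.44 ± 0.30). Vdr, the vitamin D receptor gene, was 6.32, 23.4, 7.98 and 9.68 CPM with WT IL-2 and 5.70, 4.87, 2.71 and 5.85 CPM with 3x in the isotype arm (log2 fold change -1.3 ± 0.31, adjusted p = 0.00233, and -0.74, adjusted p = 0.0396, without WT IL-2 library 2) and rose by 3.06 under the block. Il21, the gene of a helper cytokine, was 3.15, 13.3, 2.25 and 4.70 CPM and 3.73, 1.92, 1.37 and 3.21 CPM (log2 fold change -1.18 ± 0.41, adjusted p = 0.0327), a call that was lost without WT IL-2 library 2 (-0.39, adjusted p = 0.474) or 3x library 3 (-0.97, 0.109), in a fit of the 8 libraries alone (-1.19, 0.109), with limma (-0.55, 0.109) and with the marker covariate (-1.65, adjusted p = 0.142). The most positive differences, of the phagocyte genes Lrp1 (3.48 ± 1.19), Itgad (3.20 ± 0.89), Mpeg1 (1.73 ± 0.69), Nfam1 (1.52 ± 0.47) and Cfp (1.5 ± 0.62), came with the blocked WT IL-2 library that held the high macrophage markers. Without that library the differences were 0.51 (Lrp1, adjusted p = 0.561), 0.75 (Itgad, 0.0975), 0.51 (Mpeg1, 0.401), 0.69 (Nfam1, 0.0605) and 0.08 (Cfp, 0.848), and in the isotype arm none of these genes was called.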

How the data were processed

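RNA of bead-selected splenic Tregs was made into stranded, poly(A)-selected libraries and sequenced in pairs on a NextSeq2000. Per the study's methods, the authors aligned reads with the OSA aligner of the Omicsoft Array Suite to the mouse genome B38 with a GENCODE gene model and quantified genes with Omicsoft's implementation of RSEM. The deposited expected counts are estimated counts per gene, not normalized, and were rounded to whole numbers here. The authors also deposited FPKM values from the same quantification, used only in an alternative, and tables of their own fold changes, adjusted p-values and Wald statistics for comparisons with PBS, which were not used. The submitters' processing notes name DESeq2 1.30.1 and RSEM.

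Of 53345 genes, 51519 (96.6%) had a name in GENCODE vM21, the source of biotypes and coordinates. Protein-coding genes with more than 0.5 CPM in at least 4 of 32 Treg libraries and no empty cell (29 genes left out) were kept, 12392 in all. Library sizes were scaled by TMM, all 8 Treg groups entered 1 model without covariates, and the contrast of 3x with WT IL-2 was tested by quasi-likelihood in edgeR (version 4.0.16, with limma 3.58.1, R 4.3.3), with Benjamini-Hochberg adjustment over all 12392 genes and a threshold of 0.1. Standard errors are the log2 fold change divided by the root of F, and CPM are TMM-scaled. The procedure was also run on counts simulated with the mean levels and spread of this fit, with 50 genes changed at each size. It called 23 of 50 at a log2 change of 0.25, 42 at 0.5, 49 at 1 and 49 at 2, all with the right sign. Alternatives used DESeq2 1.42.0, limma on log2(FPKM + 1), other scalings, filters and sample sets. The study's protocol processed mice as separate samples. Replicate numbers were not used to pair the groups. Correlations of deviations were 0.00933 to 0.0855 for equal numbers and -0.117 to 0.0649 for unequal numbers.

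Genes named are a fixed set of key genes, the 12 largest rises and 12 largest falls without overlap above 5 CPM, up to 3 called members per list above 5 CPM and the 5 largest differences between antibody arms in each direction, with Jak1, Stat5a, Stat5b and Il2rg added. Some genes that this rule names are not reported here. The comparison, key genes and lists were chosen with earlier results of these data known, so a list's count is a description and not independent evidence. Lists also share members, so their counts are not separate results. Lag3, Tigit and Ctla4 count both as suppressor molecules and as inhibitory receptors, and Pdcd1 and Icos both as receptors and as surface markers. Promoters are RefSeq windows of 300 bases in GRCm38.p6, which matched 9764 (78.8%) of the tested genes. Motif shares are not given for interferon or sterol genes, of which under 80% matched.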

Additional observations from a re-analysis of the deposited data

Results flagged for a closer look

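Of 142 groups of 4 libraries examined for single values that stand apart, 7 did, where chance alone gives about 1 in 20 groups. WT IL-2 library 2 was apart for Amotl1 (4.47 CPM, lowest of its group), Icos (502 CPM, highest) and Spp1 (54.3 CPM, highest). WT IL-2 library 3b was apart for Lrrc32 (597 CPM, highest) and Mpeg1 (4.79 CPM, lowest), and 3x library 3 for Cacna1h (2.17 CPM, highest) and Slpi (1.25 CPM, highest).

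For 41 of 57 key, largest-change and largest-difference genes, the difference of 3x from WT IL-2 was itself called as different between the isotype and the MHC class II blocked arm (quasi-likelihood test of edgeR, p adjusted after Benjamini and Hochberg). The calls of 10 of them follow from their choice by the size of this difference. Of the other 47, 31 were called, beside 43.8% of all tested genes, and those among them chosen as the largest changes were picked on the isotype values that enter the difference. The isotype value was the higher one for 10 genes, in log2 units by 3.48 (Lrp1), 3.20 (Itgad), 1.73 (Mpeg1), 1.52 (Nfam1), 1.5 (Cfp), 1.26 (Sorcs2), 1.10 (Drc1), 1.08 (Igfbp4), 0.81 (Ifit1) and 0.57 (Tcf7). It was the lower one for 31. The largest were those of Vdr (-4.37), Il21 (-4.22), Spp1 (-3.87), Gcg (-3.76), Lgals7 (-3.44), Ifitm1 (-2.79), Lag3 (-2.79), Amotl1 (-2.26), Ifitm2 (-2.07), Pdcd1 (-1.80), Gzmb (-1.72), Il10 (-1.70), Slpi (-1.59), Ifitm3 (-1.43), Cacna1h (-1.29, but 0.088 with limma), Ccr8 (-1.27), Il1r2 (-1.24), Mzb1 (-1.24), Jchain (-1.17) and Icos (-1.12). The others were those of Ccnb1 (-0.88), Areg (-0.82), Ctla4 (-0.80), Gpld1 (-0.60), Tnfrsf18 (-0.59), Il2ra (-0.52), Il2rb (-0.40), Ccnd2 (-0.36), Lrrc32 (-0.27), Cish (-0.21) and Foxp3 (-0.19). The called differences of Lrp1, Mpeg1 and Cfp were lost without blocked WT IL-2 library 1, whose macrophage markers summed to 1240 CPM. That of Il1r2 was lost without isotype WT IL-2 library 2 (-0.77, adjusted p = 0.178) or 3x library 4 (-1.05, adjusted p = 0.109), and that of Spp1 was -2.57 without the former (adjusted p = 0.0223). Those of Foxp3 (-0.14, adjusted p = 0.144) and Cish (-0.16, adjusted p = 0.118) were also lost without blocked WT IL-2 library 1. That of Foxp3 was lost without blocked 3x library 1 too (-0.17, adjusted p = 0.106). The calls of Cish and of Slpi (-1.27 to -1.54, adjusted p up to 0.148) were lost when any 1 of several libraries was left out.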

How the results depend on the processing

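The 4296 calls between 3x and WT IL-2 became 4230 with RLE size factors, 4191 with total counts, 3893 without the CPM filter, 4378 with all biotypes, 4631 in a fit of the 8 libraries alone, 4284 with empty cells as 0, 3667 with WT IL-2 libraries 3a and 3b summed, 4441 with DESeq2, 3705 with limma on log2(FPKM + 1) and 3374 at a threshold of 0.05. Calls shared with these fits kept their sign. Total counts moved the split to 1638 higher and 2553 lower (39.1% higher, from 2099 and 2197), with a median of all genes of -0.0234. Limma gave 1440 higher and 2265 lower. A required log2 change of at least 1 left 463 calls (47 higher, 416 lower) and 516 differences between the arms in place of 5424. Leaving out 1 library gave 3381 to 4200 calls, 1626 to 2053 of them higher and 1739 to 2147 lower, and 4657 to 5902 differences between the arms.

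With the replicate number as a replicate block, 4239 genes were called (2058 higher, 2181 lower) and 5328 differences between the arms. Of the 139 called named genes, the block ended the calls of Gimap7, Rrp12 and Spry2, as did the covariate (-0.38, -0.073 and -0.016).

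The covariate of other-cell markers, chosen after the data were seen, left 1152 calls (661 higher, 491 lower) and 5702 differences between the arms. It kept 80 of the 139 named calls, ended 57 and turned 2, Gimap9 (-0.0025) and Ly6d (0.21), neither of them called there. Of the named genes not called between the groups, Lrp1 (3.94), Mpeg1 (1.83), Cfp (1.41) and Nfam1 (1.33) changed sign and were called with it, and Gcg (-0.58), Lgals7 (-0.30), Cish (-0.013) and Irf7 (0.0053) changed sign with no call in either model. Itgad (2.76) was also called with it, without a change of sign. The covariate itself was called for 1913 genes. Of the called differences of named genes between the arms, that of Cacna1h changed sign, to 0.088 with limma. Over all alternatives, 63 of the 139 named calls were lost at least once, 48 of them only under the covariate.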
